A study of Mus musculus with 18 samples.

Results

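The keratin-associated protein genes of the mouse, whose symbols begin with Krtap, were followed through embryonic mammary epithelium with and without stabilized β-catenin. Every row of the count table with such a symbol was taken, which gave 58 of the 24376 genes. By subfamily number, 20 members belong to the high-sulfur class, 17 to the ultrahigh-sulfur class and 16 to the high glycine-tyrosine class. The remaining 5 (Krtap28-10, Krtap28-13, Krtap29-1, Krtap31-1 and Krtap31-2) carry numbers that were left unclassified.

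The study counted transcripts by RNA-seq in 18 libraries made from the epithelium of mammary buds 1 to 3, which was freed from ventral skin by enzyme treatment and dissected by hand. Its title asks what the canonical Wnt pathway does as the gland forms before birth. Stabilized embryos carried Krt14Cre and 1 Ctnnb1 allele with a floxed exon 3 beside a wild-type allele. Krt14Cre drives recombination in the epithelium, and the β-catenin made after loss of exon 3 escapes degradation. Controls were littermates with the same floxed allele and no Cre. All embryos were of a mixed C57Bl/6 and NMRI background. At E13.5, when the gland is a bud, 4 stabilized and 4 control libraries were made. At E16.5, when it begins to sprout, 5 of each were made. Each library pooled tissue of 2 to 3 embryos of the same litter and genotype. The E13.5 pools held both sexes and the E16.5 pools females alone, so the effects of stage and sex makeup cannot be told apart.

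Keratin-associated proteins are small proteins that fill the matrix between the keratin filaments of the hair shaft, where their cysteines form disulfide bonds with hair keratins. Their genes have mostly a single exon, lie in tandem clusters, and are switched on late in shaft differentiation, in cells of the cortex and cuticle. They are known as products of the hair follicle and other keratinised appendages, and are not part of the normal mammary epithelial programme.

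Library totals ran from 26768810 to 36922108 counts. Ctnnb1 had 1693 to 3211 CPM (counts scaled to a common library total with TMM factors) in E16.5 stabilized libraries, against 1112 to 1395 CPM in E16.5 controls. At E13.5 it had 2758 to 3496 CPM in stabilized libraries and 2421 to 3156 CPM in controls. A count over the whole gene does not show the loss of exon 3. The Wnt feedback gene Axin2 had 199 to 317 CPM in E16.5 stabilized libraries and 22.3 to 37.8 CPM in E16.5 controls. At E13.5 its groups overlapped, with 348 to 483 CPM in stabilized libraries and 260 to 364 CPM in controls. That difference did not pass (edgeR adjusted p = 0.0976). The summed level of 4 epithelial markers was 2689 to 5802 CPM in E16.5 stabilized libraries and 1692 to 2032 CPM in E16.5 controls, but the 4 genes were split. Krt5 (2556 CPM in stabilized libraries, 459 CPM in controls) and Cdh1 (613 CPM in stabilized libraries, 349 CPM in controls) were higher, Epcam was lower (212 CPM in stabilized libraries, 415 CPM in controls), and Krt14 did not pass (519 CPM in stabilized libraries, 671 CPM in controls, edgeR adjusted p = 0.189). At E13.5, 1 epithelial marker was higher and 1 lower by edgeR. The lower was Krt14 (264 to 416 CPM in stabilized libraries, 721 to 958 CPM in controls). The 4 mammary bud markers were Tbx3, Gata3, Pthlh and Msx2. They summed to 613 to 896 CPM in E16.5 stabilized libraries and 698 to 985 CPM in E16.5 controls (edgeR: 1 higher, 2 lower). At E13.5 they summed to 959 to 1225 CPM in stabilized libraries and 2115 to 3076 CPM in controls (edgeR: 1 higher, 3 lower). The 4 muscle markers reached at most 3.03 CPM in any library. The 6 mesenchymal markers summed to 167 to 287 CPM in E16.5 stabilized libraries and 94.4 to 370 CPM in E16.5 controls. Markers of the follicle's inner root sheath, 9 of 9, summed to 1552 to 5601 CPM in E16.5 stabilized libraries and 4.58 to 8.61 CPM in E16.5 controls. The 5 epidermal markers summed to 740 to 18196 CPM in E16.5 stabilized libraries and 32.3 to 178 CPM in E16.5 controls. In both lists replicate 1 of the E16.5 stabilized group was the highest library. The part of these cell types in the Krtap levels was not tested. These are bulk samples, so more cells of a type and more RNA per cell cannot be told apart.

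Sequences before the transcription starts were read for the 51 members that matched RefSeq's promoter table (GRCm38.p6), each 300 bases long, from 250 bases before the start to 50 after it. They are shown because many members hold a TATA box at a similar distance from the start, a feature that the choice of members did not use. The windows below belong to Krtap3-1 (chr11:99566581-99566880, minus strand), Krtap8-1 (chr16:89487903-89488202, minus strand), Krtap1-5 (chr11:99580967-99581266, minus strand), Krtap5-5 (chr7:142229922-142230221, minus strand) and Krtap21-1 (chr16:89403725-89404024, minus strand). They are written 5′ to 3′ on the gene's strand, and capitals mark matches to TATAAA or to the Lef/Tcf core TCAAAG on either strand, so that TTTATA and CTTTGA are their reverse forms.
Krtap3-1: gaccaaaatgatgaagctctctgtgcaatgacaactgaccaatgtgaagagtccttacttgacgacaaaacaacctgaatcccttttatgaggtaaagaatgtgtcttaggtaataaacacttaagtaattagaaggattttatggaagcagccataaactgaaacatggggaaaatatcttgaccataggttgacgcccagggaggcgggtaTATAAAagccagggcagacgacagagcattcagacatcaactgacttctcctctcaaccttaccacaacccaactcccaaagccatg
Krtap8-1: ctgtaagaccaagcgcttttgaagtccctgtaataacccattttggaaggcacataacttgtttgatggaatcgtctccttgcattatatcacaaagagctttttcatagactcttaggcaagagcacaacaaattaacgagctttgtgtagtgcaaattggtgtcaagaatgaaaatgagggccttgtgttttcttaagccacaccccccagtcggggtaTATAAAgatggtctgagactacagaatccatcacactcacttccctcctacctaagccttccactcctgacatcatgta
Krtap1-5: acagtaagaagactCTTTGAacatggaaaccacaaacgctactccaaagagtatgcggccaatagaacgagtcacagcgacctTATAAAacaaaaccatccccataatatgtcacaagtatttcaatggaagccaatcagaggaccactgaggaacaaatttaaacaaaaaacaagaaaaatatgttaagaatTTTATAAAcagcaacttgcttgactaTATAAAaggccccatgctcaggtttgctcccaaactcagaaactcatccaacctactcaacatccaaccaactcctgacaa
Krtap5-5: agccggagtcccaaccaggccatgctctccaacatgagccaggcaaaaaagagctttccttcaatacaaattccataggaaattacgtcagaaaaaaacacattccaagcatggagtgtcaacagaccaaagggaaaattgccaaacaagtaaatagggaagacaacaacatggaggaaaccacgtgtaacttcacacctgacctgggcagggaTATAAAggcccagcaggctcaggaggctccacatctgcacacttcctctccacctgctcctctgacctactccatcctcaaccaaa
Krtap21-1: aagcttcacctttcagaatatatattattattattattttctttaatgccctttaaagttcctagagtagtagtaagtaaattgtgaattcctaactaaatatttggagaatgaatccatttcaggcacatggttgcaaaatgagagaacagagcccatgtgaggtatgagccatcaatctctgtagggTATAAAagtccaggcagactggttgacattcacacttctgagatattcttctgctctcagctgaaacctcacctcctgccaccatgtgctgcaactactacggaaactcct

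The letters TATAAA stood on either strand in 42 of the 51 windows (82.4%), against 13.6% of all 32817 RefSeq windows of this length. On the gene's own strand, starting between 40 and 20 bases before the annotated start, they stood in 31 members (60.8%), against 2% of all windows. In Krtap3-1, the member with the highest level per kb, the box began 37 bases before the start. It began 29 bases before the start of Krtap8-1, 31 before that of Krtap1-5 and 36 before that of Krtap5-5. In Krtap21-1 it began 61 bases before the annotated start and so fell outside that range. The Lef/Tcf core TCAAAG, the short site bound by the DNA-binding partners of β-catenin, matched in 15 members (29.4%), against 16% of all windows. The Hox group 13 core CAATAAA matched in 0 members, against 4.6% of all windows. No base was shared by matches to different motifs, although matches to TATAAA on both strands overlap in Krtap1-5. These counts describe letters within 300 bases, and members of a subfamily share much of that sequence.

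The codon composition of the annotated reading frames (GENCODE M21, GRCm38) followed the subfamily numbers with several exceptions. The median cysteine share of codons was 20.2% in the high-sulfur class, 37.7% in the ultrahigh-sulfur class and 8.05% in the high glycine-tyrosine class. Within the high-sulfur class it ran from 4% (Krtap15) to 30.6% (Krtap1-3). Its lower part overlapped the high glycine-tyrosine class, which ran from 0% to 16.7%. The median share of glycine plus tyrosine was 7.77% in the high-sulfur, 4.79% in the ultrahigh-sulfur and 63.3% in the high glycine-tyrosine class. Krtap16-3, numbered with a high-sulfur subfamily, had 8.14% cysteine and 59.3% glycine plus tyrosine, the composition of the high glycine-tyrosine class. Krtap7-1, numbered with the high glycine-tyrosine class, had only 29.9% glycine plus tyrosine. Krtap9-3, numbered with the ultrahigh-sulfur class, had only 27.2% cysteine. Members with over 30% of both were Krtap28-13 (42.8% cysteine, 42% glycine plus tyrosine), Krtap28-10 (42.9%, 38.7%), Krtap5-3 (35.1%, 39.3%), Krtap5-2 (34.6%, 36%) and Krtap17-1 (35.8%, 34.9%). Krtap19-9b had no cysteine codon. Krtap19-9a is annotated as a processed pseudogene and has no reading frame.

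**Figure D1:**
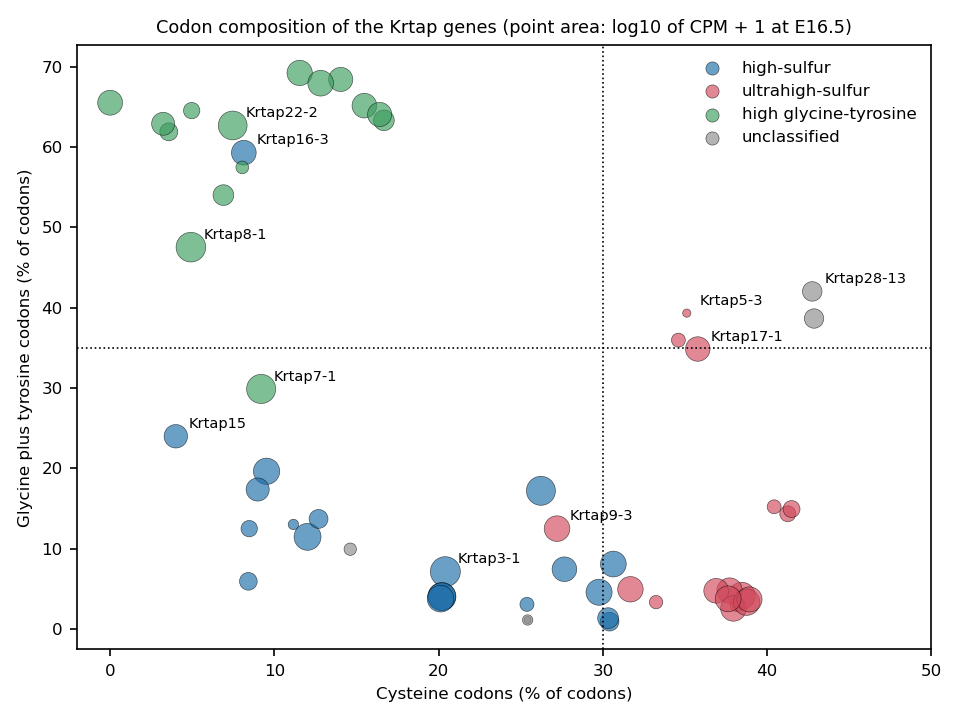
Share of cysteine codons (x axis, %) against share of glycine plus tyrosine codons (y axis, %) for the 57 members with a reading frame; colours are the classes by subfamily number, point area grows with the mean level in E16.5 stabilized libraries, and dotted lines mark 30% cysteine and 35% glycine plus tyrosine. Krtap16-3 lies among the high glycine-tyrosine members, and Krtap28-13, Krtap28-10, Krtap5-3, Krtap5-2 and Krtap17-1 are high on both axes.

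At E16.5 nearly every Krtap gene was present in stabilized epithelium and close to absent from controls. The members summed to 13804, 21570, 4967, 12555 and 16855 CPM in the stabilized libraries 1 to 5, against 0.204, 3.81, 1.32, 0.469 and 0.178 CPM in the control libraries 1 to 5. The groups did not overlap, and the lowest stabilized library was replicate 3. In the stabilized libraries the members made up 0.498% to 1.97% of all counts, with a mean of 1.23%. No member had 0 counts in all 5 stabilized libraries, while 27 of the 58 had 0 counts in all 5 controls. In 52 of 58 members (89.7%) every stabilized library lay above every control, as it did for 13.2% of all rows of the table.

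Of the 58 members, 52 passed the filter on low counts, and 6 (Krtap5-2, Krtap5-3, Krtap19-9a, Krtap26-1, Krtap31-1 and Krtap31-2) did not. All 52 tested members were higher in stabilized epithelium at E16.5 by edgeR's quasi-likelihood test at an adjusted p below 0.05, beside 22.2% of the 17269 genes tested. Most members passed the filter only through the stabilized E16.5 libraries, so this count follows from the filter and adds nothing to the levels. The call of 3 thinly counted members, Krtap4-13, Krtap5-1 and Krtap5-5, was lost when stabilized replicate 1, 2, 4 or 5 was left out. No call was lost without replicate 3. The filter was applied anew in each refit, so a lost call can mean a member no longer tested.

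**Figure D2:**
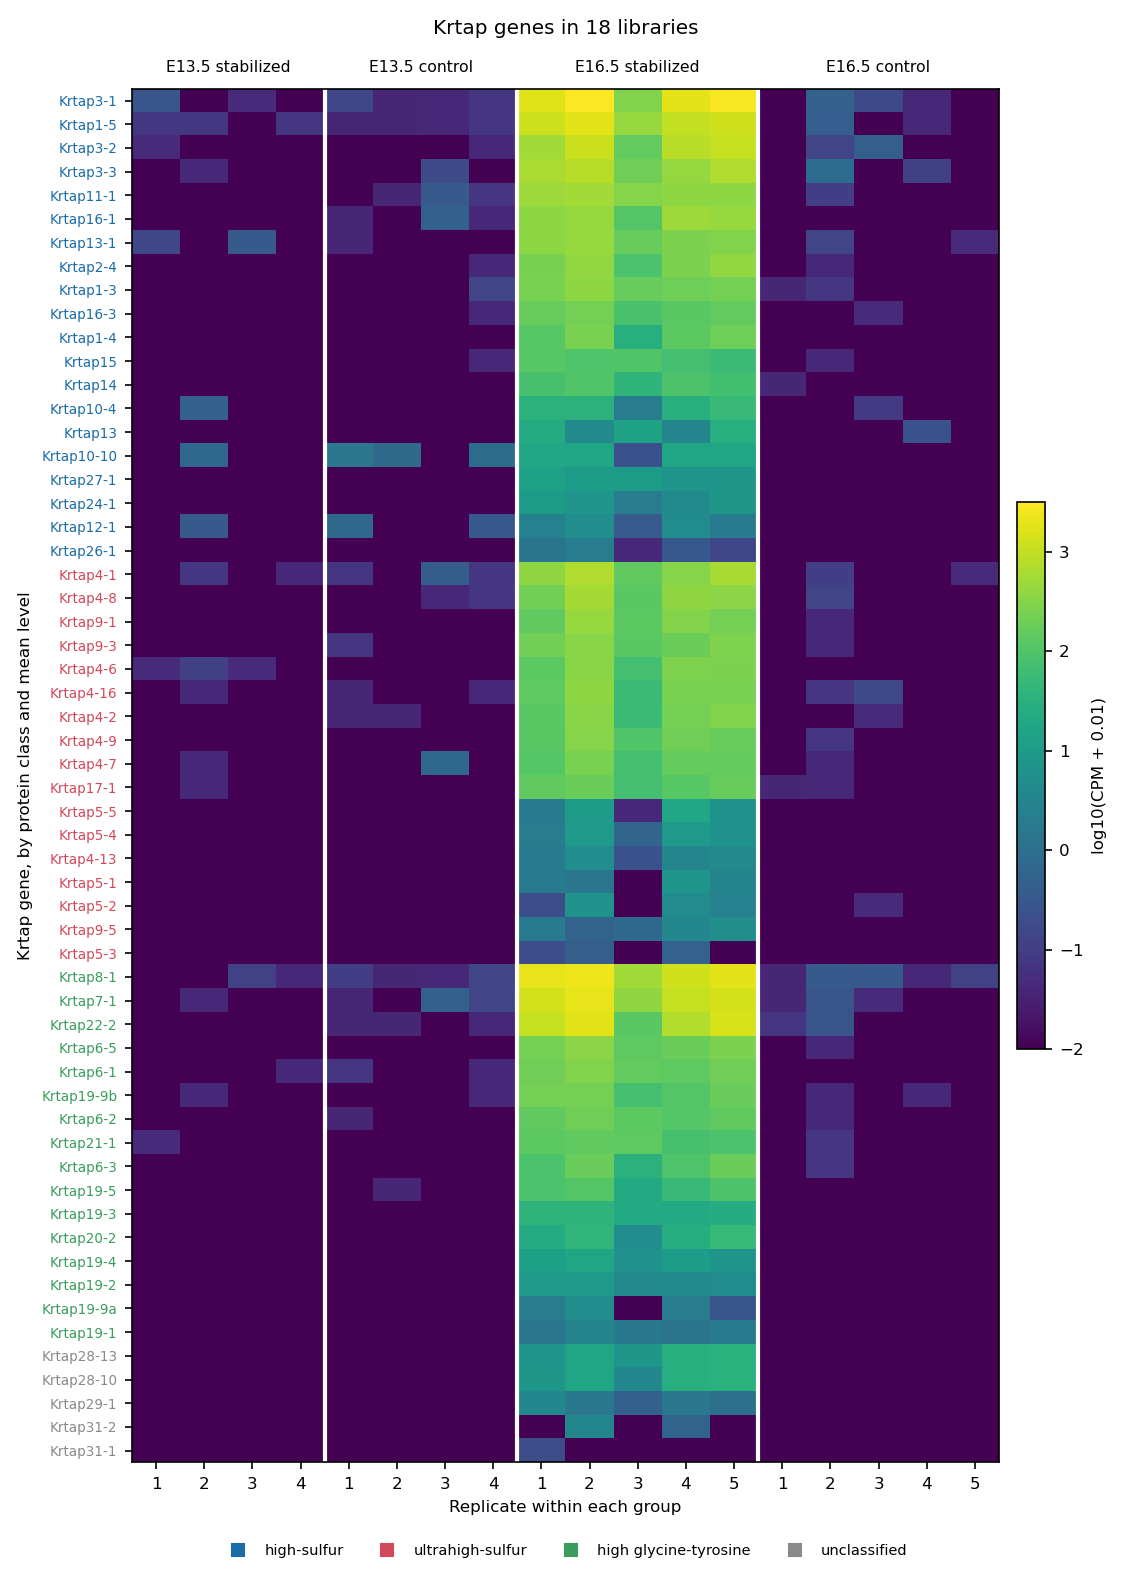
Level of each of the 58 Krtap genes (rows, coloured by class and ordered by mean level) in the 18 libraries (columns, by group and replicate), as log10 of CPM + 0.01. The 5 E16.5 stabilized columns are bright for most rows, replicate 3 is dimmer than the other 4, and the other 3 groups hold scattered low counts.

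The levels spanned a wide range. Per kb of transcript, the scale on which genes are compared here, the mean in E16.5 stabilized libraries ran from 0.0393 CPM per kb (Krtap31-1) to 3261 CPM per kb (Krtap3-1), with a median of 161 CPM per kb. Of the 58 members, 54 reached a mean of 1 CPM, 41 reached 10 CPM, 30 reached 100 CPM and 5 reached 1000 CPM. Those 5, Krtap3-1, Krtap8-1, Krtap7-1, Krtap1-5 and Krtap22-2, took 50.2% of the summed Krtap CPM, and the 10 most abundant took 68.1%.

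The balance of classes depended on the scale. In counts, the high-sulfur class summed to 6566 ± 2863 CPM (SD, n = 5), the high glycine-tyrosine class to 4996 ± 2257 CPM and the ultrahigh-sulfur class to 2349 ± 1090 CPM in E16.5 stabilized libraries. Per kb, the high glycine-tyrosine class, with the shortest transcripts, came first with 9596 ± 4539 CPM per kb, the high-sulfur class had 8234 ± 3731 CPM per kb and the ultrahigh-sulfur class 2479 ± 1134 CPM per kb. The share per kb of the high glycine-tyrosine class lay between 41.5% and 52.1% over the 5 libraries, and that of the high-sulfur class between 38.5% and 43.6%. In replicate 4 the high-sulfur class was ahead, so the order of these classes was not the same in every library. The ultrahigh-sulfur class held 9.09% to 14.9% and was last of the 3 in every library. These classes follow the subfamily numbers. By codon composition, over 30% cysteine counted as ultrahigh-sulfur, and otherwise at least 35% glycine plus tyrosine as high glycine-tyrosine. All remaining reading frames counted as high-sulfur, with no least share of cysteine. Several members then change class, and Krtap7-1 (9.2% cysteine) falls into the high-sulfur class as part of that remainder. High-sulfur members then summed to 7593 ± 3368 CPM in E16.5 stabilized libraries (SD, n = 5). High glycine-tyrosine members summed to 3909 ± 1737 CPM there. The order per kb was not worked out for classes by composition.

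**Figure D3:**
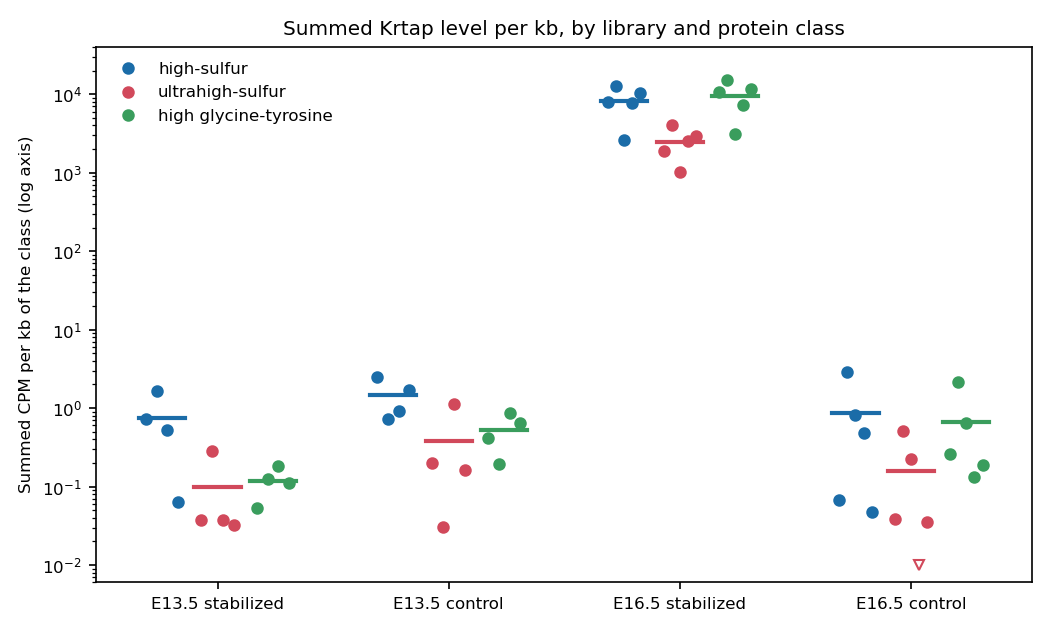
Summed level per kb of the high-sulfur, ultrahigh-sulfur and high glycine-tyrosine members (log axis, CPM per kb) in every library, by group; points are libraries, bars are group means, and the open triangle marks a library at 0. The E16.5 stabilized libraries sit far above the other groups in all 3 classes.

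Among the high-sulfur members, the Krtap3 subfamily contributed most, with 3254 ± 1727 CPM in E16.5 stabilized libraries. Krtap3-1 (ENSMUSG00000047564, chromosome 11, 99566027 to 99566630, a single exon) had 1733, 3170, 281, 1932 and 2734 CPM in stabilized libraries 1 to 5, against 0, 0.485, 0.150, 0.0335 and 0 CPM in controls 1 to 5. Every stabilized library was above every control, and replicate 3 was the lowest stabilized library. The ratio of mean CPM was 14729 (95% counting interval from summed counts 9668 to 24446). The log2 fold change was 13.80 ± 1.01 (SE, edgeR adjusted p = 3.52e-08).

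Krtap1-5 (ENSMUSG00000047253) had 1203, 1879, 454, 993 and 1267 CPM in stabilized libraries 1 to 5, against 0, 0.420, 0, 0.0335 and 0 CPM in the controls, and the groups did not overlap. Krtap11-1 was steadier, with 497, 546, 314, 367 and 361 CPM in stabilized libraries and at most 0.0970 CPM in a control. Krtap16-1 had 368, 448, 107, 485 and 446 CPM in stabilized libraries and 0 counts in all 5 controls. Krtap13-1 had 374, 440, 166, 260 and 294 CPM in stabilized libraries against at most 0.129 CPM in a control. In all 4 genes the lowest stabilized value was in replicate 3, but that library stood at 70.9% of the mean of the other 4 for Krtap11-1 and at 24.5% for Krtap16-1. Krtap2-4 averaged 278 ± 134 CPM, Krtap15 87.9 ± 24.8 CPM and Krtap14 76.3 ± 23.6 CPM in stabilized libraries (SD, n = 5), each with 1 count over the 5 controls.

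Several high-sulfur members with low levels lie at the low-coordinate end of the chromosome 16 cluster and on chromosome 10. In E16.5 stabilized libraries Krtap27-1 averaged 9.83 ± 2.73 CPM, Krtap24-1 6.34 ± 3.23 CPM and Krtap26-1 0.784 ± 0.888 CPM, all with 0 counts in E16.5 controls. Krtap10-4 had 33.5, 34.9, 2.01, 28.8 and 52.8 CPM and Krtap10-10 had 20.1, 16.8, 0.238, 17.5 and 16.9 CPM in stabilized libraries 1 to 5. Both were lowest in replicate 3, at 5.36% and 1.34% of the mean of the other 4. Krtap12-1 averaged 2.91 ± 1.93 CPM. In human follicles the KRTAP10 and KRTAP12 genes are expressed in the shaft cuticle.

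The ultrahigh-sulfur members, the class with the highest median share of cysteine codons, were led by the Krtap4 subfamily with 1716 ± 846 CPM in E16.5 stabilized libraries. Krtap4-1 (ENSMUSG00000063251) had 391, 686, 143, 315 and 603 CPM in stabilized libraries 1 to 5, against 0, 0.0970, 0, 0 and 0.0357 CPM in controls. The groups did not overlap, with a log2 fold change of 13.76 ± 0.771 (SE, edgeR adjusted p = 9.65e-10). Krtap9-1 had 143, 448, 131, 302 and 221 CPM and Krtap17-1 had 146, 180, 71.4, 119 and 169 CPM in stabilized libraries, with 1 and 2 counts over the controls. The Krtap5 subfamily, which in human follicles is expressed in the shaft cuticle, was far lower, and its 5 members summed to 17.5 ± 15.0 CPM per kb (SD, n = 5). Krtap5-5, the highest of them, had 1.76, 11.1, 0.0341, 18.8 and 6.42 CPM in stabilized libraries and 0 counts in controls. Its libraries differed 552-fold at most, the widest spread of any member with a count in all 5.

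Among the high glycine-tyrosine members, known from the cortex of the shaft, Krtap8-1 (ENSMUSG00000059632) had the most counts. It had 1981, 2352, 545, 1258 and 1907 CPM in stabilized libraries 1 to 5, against 0.0292, 0.356, 0.338, 0.0335 and 0.107 CPM in controls 1 to 5. It had a count in every control, and the groups did not overlap. The ratio of mean CPM was 9313 (95% counting interval from summed counts 6552 to 14947). The log2 fold change was 13.19 ± 0.655 (SE, edgeR adjusted p = 1.67e-10).

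Krtap7-1 had 1414, 1951, 394, 1024 and 1389 CPM in stabilized libraries, against 0.0292, 0.259, 0.0376, 0 and 0 CPM in controls. Krtap22-2, with a transcript of only 365 bases, had 1050, 1808, 122, 735 and 1449 CPM in stabilized libraries, against 0.0584, 0.259, 0, 0 and 0 CPM in controls. Per kb Krtap22-2 stood next to Krtap3-1 at 2829 CPM per kb and Krtap8-1 followed at 2802 CPM per kb, a gap far below the spread between libraries. Krtap6-5 averaged 233 ± 84.2 CPM, Krtap19-9b 162 ± 68.7 CPM and Krtap20-2 28.9 ± 16.7 CPM in stabilized libraries (SD, n = 5), with 1, 2 and 0 counts over the controls. Krtap21-1 differed from these in its pattern, with 131, 146, 139, 78.4 and 89 CPM in stabilized libraries and at most 0.0647 CPM in a control. Replicate 3, lowest for most members, was its second highest library.

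Of the unclassified members, Krtap28-13 had 7.31, 18.3, 8.07, 28.5 and 32 CPM in stabilized libraries 1 to 5, and Krtap28-10 had 8.19, 17.2, 3.68, 29.3 and 32.9 CPM. Both had 0 counts in the other 13 libraries, and both were highest in replicates 4 and 5, unlike the 38 members that were highest in replicate 2. Krtap29-1 averaged 1.65 ± 1.17 CPM in E16.5 stabilized libraries. Krtap31-2 was counted in stabilized libraries 2 and 4 only, at 3.28 and 0.571 CPM, and Krtap31-1 in library 1 only, at 0.191 CPM.

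The members lie in 5 clusters (GRCm38/mm10), and all 5 were represented in E16.5 stabilized epithelium. The chromosome 11 cluster (99550130 to 99993994) holds 23 members and summed to 7781 ± 3668 CPM, and the chromosome 16 cluster (88610705 to 89571183) holds 25 and summed to 6066 ± 2513 CPM. Per kb the chromosome 16 cluster held 47.9% to 59.6% of the summed level. The clusters on chromosome 10 (3 members, Krtap10 and Krtap12), chromosome 1 (2 members, Krtap28) and chromosome 7 (5 members, Krtap5) summed to 47.6 ± 26.3, 37.1 ± 24.1 and 18.9 ± 16.3 CPM. Within the 443.9 kb of the chromosome 11 cluster, Krtap3-1 lay near one end, and Krtap29-1, Krtap31-1, Krtap31-2 and Krtap9-5 lay together in the distal part at 2.17 CPM per kb or less. Levels were higher again beyond them, where Krtap16-1 averaged 371 CPM and Krtap17-1 137 CPM in E16.5 stabilized libraries.

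**Figure D4:**
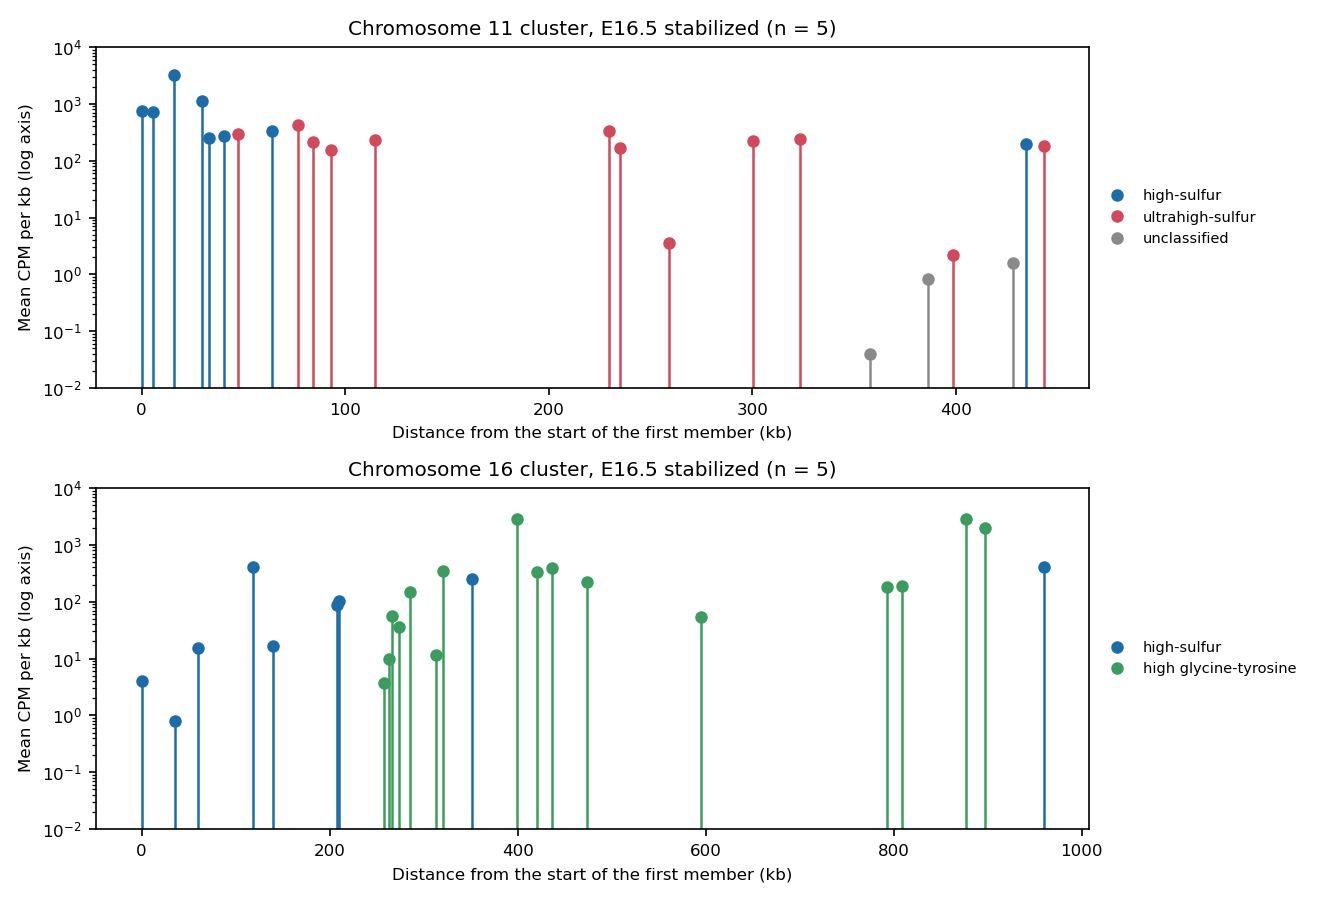
Mean level per kb of each member in E16.5 stabilized libraries (log axis, CPM per kb) against its distance in kb from the start of the first member, for the chromosome 11 cluster (top) and the chromosome 16 cluster (bottom); colours are protein classes. Levels vary along both clusters, with runs of low members in the distal part on chromosome 11 and at the low-coordinate end on chromosome 16.

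Genes without a Krtap symbol inside the clusters were also counted in E16.5 stabilized epithelium. Of the protein-coding ones, all 13 tested on chromosome 11, all 13 tested on chromosome 16, both on chromosome 1 and 6 of 7 on chromosome 10 were higher in stabilized epithelium by edgeR (background 22.2%), and none was tested on chromosome 7. Of all those inside, 14 of 18 on chromosome 11, 8 of 14 on chromosome 16, 2 of 2 on chromosome 1 and 9 of 11 on chromosome 10 had 0 counts in E16.5 controls. Most therefore could be tested only through the stabilized libraries, so nothing is read from the count against the background. Many of them carry predicted-gene symbols. The one with the most counts, Gm11562 on chromosome 11, averaged 730 CPM in stabilized libraries and 0.0594 CPM in controls, and it holds 46% of the 31-base words of Krtap2-4. Beyond the chromosome 16 cluster the claudin gene Cldn8 averaged 16.4 CPM in stabilized libraries and 4.14 CPM in controls, and Sod1 averaged 199 CPM in stabilized libraries and 252 CPM in controls, which did not pass (edgeR adjusted p = 0.274). Beside the chromosome 11 cluster lie hair keratin genes, Krt39 and Krt40 on one side and Krt33a and Krt33b on the other. Krt33a averaged 734 CPM in E16.5 stabilized libraries and 0.133 CPM in E16.5 controls, and Krt40 averaged 1.85 and 0.0783 CPM.

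Counts of near-identical members are uncertain, because reads that match several members have to be divided among them. Of the 58 members, 13 shared no 31-base word with another gene, 24 shared over 25% of their words and 4 over 50%. The last 4 were Krtap4-13 (89.8%), Krtap5-1 (77.2%), Krtap10-4 (55.2%) and Krtap4-8 (53.5%). Krtap8-1, Krtap7-1, Krtap22-2, Krtap11-1, Krtap16-1 and Krtap17-1 shared none in GENCODE M21. Whether they did in the annotation used for the deposited counts is not known. Krtap15 overlaps an exon of 4930553J12Rik, and Krtap24-1 overlaps an exon of Gm49688 on the other strand; the strand setting of the counting is not given in the sources used here.

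Replicate 3 of the E16.5 stabilized group stood apart from the other 4. Its summed Krtap level was 30.7% of their mean, and it was strictly lowest in 46 of the 58 members. The members' levels there had a median of 28.3% of the mean of the other 4, beside a median of 96.8% over all genes tested. The members differed widely in this. Krtap22-2 stood at 9.67%, Krtap3-1 at 11.7%, Krtap10-10 at 1.34%, Krtap5-5 at 0.358% and the Krtap5 subfamily as a whole at 2.76%. Krtap21-1 at 125%, Krtap15 at 121% and Krtap27-1 at 100% were not reduced, and Krtap13, Krtap6-2 and Krtap19-1 stood at 97.3%, 86.4% and 85.5%.

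Other hair follicle genes were less reduced in the same library. The summed hair keratins stood at 72.3% of the mean of the other 4, with a median of 64.8% over 15 genes, while Krt36 (221%), Krt84 (184%) and Krt35 (117%) exceeded the mean of the other 4. The 9 inner root sheath markers had a median of 39.8% and the 20 shaft regulators a median of 91.6%. The summed Krtap level differed 4.34-fold between the highest and lowest stabilized library, and the summed hair keratin level 1.60-fold. The hair keratins came to 62.9%, 36.2%, 109%, 46% and 45.5% of the Krtap sum in replicates 1 to 5. The part of the inner root sheath genes' lower level in this was not tested.

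**Figure D5:**
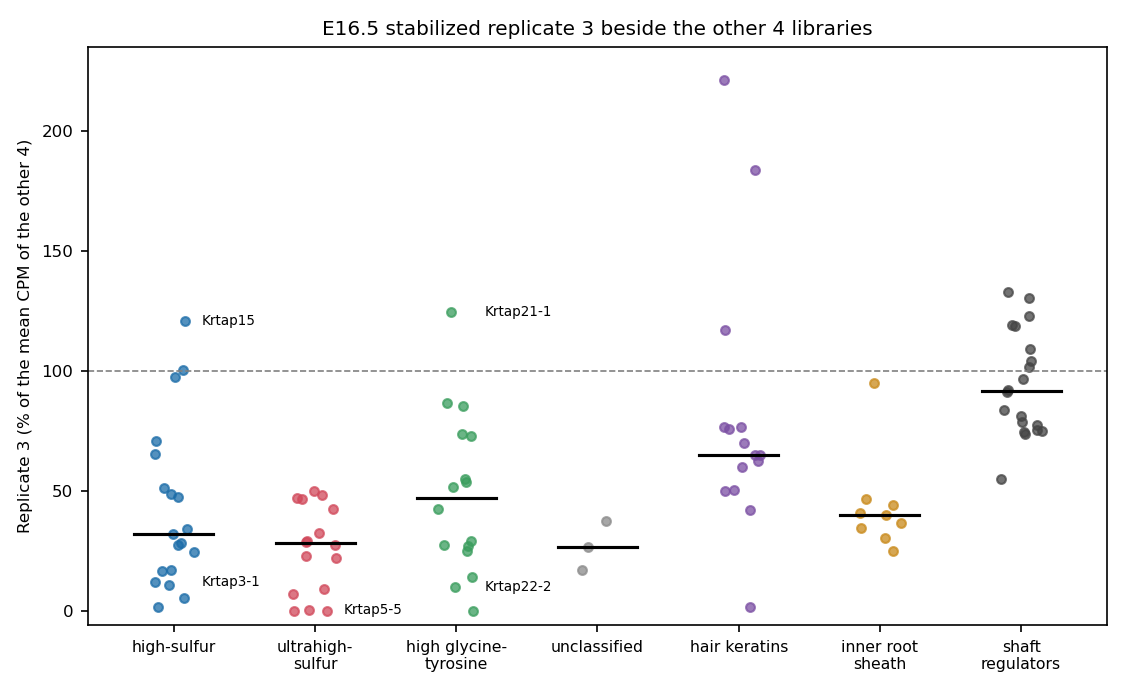
Level in E16.5 stabilized replicate 3 as a percentage of the mean of the other 4 stabilized libraries, for 54 Krtap members with a mean of at least 1 CPM by class, 15 hair keratins, 9 inner root sheath markers and 20 shaft regulators; each point is a gene and bars are medians. All but 3 Krtap points lie below the 100% line, and the shaft regulators scatter around it with a median of 91.6%.

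Outside the E16.5 stabilized group, Krtap counts were few and differed between libraries. In E16.5 controls, replicate 2 held 118 Krtap counts in 25 members, and the other 4 held between 5 and 35 counts. Of those 118 counts, 91 fell on the 10 members most abundant in stabilized libraries, and Krtap3-3 alone had 26. Across the 58 members the counts of replicate 2 followed the mean stabilized level with a Spearman rho of 0.80, given as a description. The Krtap sum of this library was 3.81 CPM and its hair keratin sum 1.91 CPM, also the highest of the 5 controls. The source of these counts was not tested.

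At E13.5 no tested member differed between stabilized epithelium and controls by edgeR (0 of 52), beside 9.58% of all genes tested that were higher and 5.29% that were lower. No member had all stabilized libraries above all controls (0 of 58), as 7.22% of all rows had. Most members held few or no counts at E13.5 and entered the test through the E16.5 stabilized libraries, so few could have passed. Nothing is read from these shares against the background. At an unadjusted p below 0.05 there were 2 members, Krtap11-1 and Krtap13-1. DESeq2 called 3 members lower in stabilized epithelium, Krtap7-1, Krtap11-1 and Krtap16-1. Their counts in control replicate 3 were 15, 10 and 15, and the same library held 21 counts of Krtap4-7 and 12 of Krtap4-1. The 4 stabilized libraries held 17, 59, 15 and 5 Krtap counts in all, against 95, 34, 82 and 68 in the 4 controls. Of the 58 members, 40 had 0 counts in all 4 stabilized libraries and 32 had 0 counts in all 4 controls.

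The largest counts at E13.5 were those of Krtap10-10, a high-sulfur member. It had 0, 21, 0 and 0 counts in stabilized libraries 1 to 4, against 50, 27, 0 and 27 counts in control libraries 1 to 4. Krtap12-1 had 10 counts in stabilized library 2 and none in the other stabilized libraries, against 23, 0, 0 and 10 counts in the controls. Both genes lie within introns of Tspear on the same strand, and Krtap10-10 also overlaps an exon of Gm2696. Tspear averaged 6.94 ± 3.07 CPM in the 4 stabilized libraries of E13.5 and 12.7 ± 2.72 CPM in the 4 controls (SD). At E16.5 its means were 10.9 ± 1.61 CPM in the 5 stabilized libraries and 1.84 ± 0.837 CPM in the 5 controls (SD). The part of unspliced Tspear RNA in these counts was not tested.

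Between the stages, all 52 tested members were higher at E16.5 than at E13.5 in stabilized epithelium (beside 2852 of the 17269 genes tested, and 28% that differed in either direction), a count that again follows from the filter. In controls none was higher at E16.5 by edgeR (0 of 52, background 24.9%), and Krtap10-10 and Krtap12-1 were lower (2 of 52, background 22.6%). Most members held few or no counts in controls at either stage, so nothing is read from these shares. Krtap10-10 had 0 counts in all 5 E16.5 controls against 104 in the E13.5 controls (edgeR adjusted p = 0.0155), and Krtap12-1 had 0 against 33 (edgeR adjusted p = 0.0199). Both calls were lost when the control libraries were fitted alone, because too few of those libraries held counts for either gene to pass the low-count filter.

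The difference between the genotype effects at E16.5 and E13.5 was tested as an interaction. It passed for 24 of the 52 tested members, all with the larger effect at E16.5, beside 15.6% of all genes tested in that direction, and DESeq2 called 50. Most members entered this test through the E16.5 stabilized libraries, so the direction of these calls follows from the filter, and nothing is read from their count against the background. Of the 28 members that did not pass, 26 had 0 counts in all 4 E13.5 controls and 22 had 0 in both E13.5 groups, so that the E13.5 ratio had no finite value. The other 2 were Krtap3-2 and Krtap13-1. Of the 24 that passed, none had 0 counts in all E13.5 controls, but 12 had 0 counts in all 4 E13.5 stabilized libraries, where the fitted E13.5 effect depends on the fit and is not a measured ratio. Krtap7-1 had an interaction of 17.78 ± 1.97 on the log2 scale (SE, edgeR adjusted p = 5.25e-06), with 1 count over the E13.5 stabilized libraries against 20 over the E13.5 controls, 15 of them in replicate 3. The count fell to 16 without control replicate 4 of E13.5.

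The hair keratins, the filament proteins that the Krtap products embed, were present beside them at E16.5. All 15 listed genes in the table were higher in stabilized epithelium by edgeR (background 22.2%). Like the Krtap members, they had few or no counts in the other groups and passed the filter through the stabilized E16.5 libraries, so nothing is read from this count. Krt81, a cortex keratin, had 1280, 1319, 716, 864 and 1306 CPM in stabilized libraries 1 to 5, against 0.0292, 0.194, 0, 0 and 0 CPM in the controls. At E13.5 Krt35, an early shaft keratin, was the only 1 of the 15 to pass. It had 0, 0, 0.243 and 1.31 CPM in stabilized libraries and 0 counts in the controls (edgeR adjusted p = 0.0477), and this call was lost in 16 of 18 refits with a library left out. Krt40 had the fewest counts, with 1.85 ± 1.07 CPM in E16.5 stabilized libraries and 0.0783 ± 0.127 CPM in E16.5 controls.

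The shaft regulator list holds 20 transcription factors and Bmp pathway genes of the hair follicle, and is not confined to the shaft lineage. Gata3 and Msx2 in it are also markers of the mammary bud. At E16.5, 16 were higher and 1 (Runx1) lower in stabilized epithelium (background 22.2% higher and 19.4% lower). At E13.5, 12 were higher and 3 lower (background 9.58% higher and 5.29% lower). The interaction passed for 18 of the 20 (background 32.2% in either direction). Hoxc13, a homeobox factor that binds and activates hair keratin and Krtap genes, had 129, 83.4, 87.7, 67.1 and 102 CPM in E16.5 stabilized libraries, against 0, 0.614, 0.977, 0.804 and 0.500 CPM in E16.5 controls. At E13.5 it had 8.41, 1.49, 22.9 and 11.4 CPM in stabilized libraries, against 1.36, 3.66, 1.04 and 0.679 CPM in controls, a rise past the threshold although the groups overlapped (log2 fold change 2.71 ± 0.739, SE, edgeR adjusted p = 0.0207). The E16.5 level of Hoxc13 in stabilized replicate 3 was within the range of the other stabilized libraries. Any relation of Hoxc13 to the Krtap levels was not tested.

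Foxn1, the factor lost in nude mice and needed for shaft keratinisation, had 131, 79.4, 71.9, 57.1 and 114 CPM in E16.5 stabilized libraries, against 2.22, 3.98, 2.59, 1.94 and 4.46 CPM in E16.5 controls. At E13.5 it lay between 0.855 and 1.9 CPM in stabilized libraries and between 0.870 and 4.26 CPM in controls, which did not pass (edgeR adjusted p = 0.307). Msx2 averaged 146 ± 22.5 CPM in E16.5 stabilized libraries and 3.43 ± 0.687 CPM in E16.5 controls. At E13.5 its libraries overlapped between the groups, with means of 50.1 ± 32.8 CPM in stabilized epithelium and 19.5 ± 3.22 CPM in controls (SD, edgeR adjusted p = 0.0233). Lef1, the DNA-binding partner of β-catenin in the shaft lineage, was higher in stabilized libraries at E16.5 (165 ± 30.7 CPM, against 26.8 ± 7.02 CPM in controls) and lower at E13.5 (331 ± 39.9 CPM, against 611 ± 124 CPM in controls), with an interaction of edgeR adjusted p = 3.81e-08.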

How the data were processed

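RNA-seq libraries of 18 pooled mammary epithelial samples were analysed from deposited tables. Per the submitters' processing notes, the tools were Salmon 0.99.0, Trimmomatic 0.39, DESeq2 3.15, MultiQC 1.9 and FastQC 0.11.8, with build mm10. Their settings, the strand and the annotation release were not given in the sources used. The main table holds the authors' deposited estimated counts per gene, already whole numbers. The second holds a deposited signal, these counts divided by gene-wise factors; it served only as alternative offsets and for rescaled sums, and a library at 0 counts took the gene's average relative factor times the library's median factor. No per-sample column was left unused (0). A deposited R object was not read. The design had assumed read counts; the table holds whole estimated counts, so the count test was kept.

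In edgeR 4.0.16 (R 4.3.3), filterByExpr (minimum count 10) kept 17269 genes, and the genes left out held 0.0418% of the counts. All 18 libraries entered 1 robust quasi-likelihood fit with a mean for each group and TMM factors (estimated common dispersion 0.25), with Benjamini-Hochberg adjustment over all tested genes and a threshold of 0.05. The SE of a log2 fold change is its absolute value divided by the square root of the quasi-likelihood F statistic. It was not fitted separately. The test code was checked on simulated data. CPM are counts scaled to a common total by TMM factors. Against a group at 0 counts, 3 counts over the group serve as the floor. Ratios are of mean CPM, and their 95% intervals come from summed counts and cover counting error only. DESeq2 1.42.0 was an alternative. Others were no low-count filter, RLE factors, deposited offsets, the comparison's libraries alone, a replicate block and each library left out.

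Positions, reading frames and shared 31-base words came from GENCODE M21, promoters from RefSeq (GRCm38.p6), and figures from Matplotlib. Members named in full were the one with the highest mean CPM of each subfamily, those past the threshold at E13.5 or between the stages in controls, and those with counts in controls. Krtap9-3, Krtap9-5, Krtap16-3, Krtap19-1, Krtap28-10, Krtap31-1 and the members with calls lost were named after their values were seen. The Krtap rule, the hair keratin and shaft regulator lists and the tests were chosen with earlier results of these data known. Which litter a pool came from is not stated, and p-values measure the spread between pools.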

Additional observations from a re-analysis of the deposited data

Results flagged for a closer look

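Of 40 combinations of a member or sum with a group examined for a library far from the others, 1 stood out: Krtap10-10 in E16.5 stabilized replicate 3 had 0.238 CPM, against 16.8 to 20.1 CPM in the other 4 stabilized libraries. The rule used, Dixon's 95% critical value, marks about 1 in 20 combinations by chance. The genotype effect differed between the stages in the interaction test for 24 Krtap members, 10 hair keratins and 18 shaft regulators.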

How the results depend on the processing

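The 52 Krtap members higher at E16.5 became 56 with no low-count filter, 52 with RLE factors, DESeq2, deposited offsets or the replicate block, 48 with the comparison's libraries alone, and 49 to 54 with a library left out. At E13.5 the count of 0 became 3 by DESeq2 and 2 with the replicate block, both lower in stabilized epithelium, and stayed 0 with each library left out. The interaction count of 24 became 50 by DESeq2 and 22 with the replicate block, and 16 to 24 with a library left out. For E16.5 against E13.5 in controls, the count of 2 became 4 by DESeq2 and 0 with the comparison's libraries alone or with the replicate block, and 2 to 3 with a library left out; in stabilized epithelium the count of 52 became 38 with the replicate block. The hair keratin count of 1 at E13.5 became 0 with no low-count filter, with the comparison's libraries alone or without E16.5 stabilized replicate 3 and E13.5 control replicate 3 together (chosen after seeing the data), became 2 by DESeq2, and was 0 to 1 with a library left out. Classing members by codon composition, also chosen after seeing the data, moved the unclassified sum in E16.5 stabilized libraries to 1.89 CPM, against 39.6 CPM, because only the pseudogene then had no class. The low-count filter was applied anew in each refit that used it, so some lost calls are of genes no longer tested. The cause of the other changes was not tested. No direction of a reported difference between groups reversed, but the order of classes per kb was not worked out by codon composition. Libraries of both genotypes with the same number share only that number: their deviations from the group means correlated between -0.10 and 0.17, and 3 of 9 correlated best with their own number. The mean Krtap sum of the E16.5 stabilized libraries without replicate 3 was 16196 CPM, against 13950 CPM with it. Levels under about 3 counts a group, which is 0.0200 CPM in E16.5 controls, are below what this depth can show.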
